A study of Mus musculus with 2 samples.

Results

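Cathepsins are the proteases of the lysosome, the compartment in which cells break down proteins taken up from outside or delivered by autophagy. The 10 genes described here encode the cysteine cathepsins B, L, Z, H and K (Ctsb, Ctsl, Ctsz, Ctsh and Ctsk), the aspartic protease cathepsin D (Ctsd), the asparaginyl endopeptidase legumain (Lgmn), the inhibitors cystatin C (Cst3) and cystatin B (Cstb), and prosaposin (Psap), the precursor of the saposins that help lysosomal enzymes reach their lipid substrates. They were chosen by gene symbol, and all 10 were found among the 27998 features of both count tables. Lysosomal proteases are made as inactive precursors, sorted to the lysosome and cleaved there, partly by one another. Cystatin C is secreted and cystatin B stays in the cytosol, and both bind cysteine cathepsins. Beclin 1 is part of a lipid kinase complex needed early in autophagy, when autophagosomes form, so the gene set encodes the compartment at the end of the route that the targeted gene begins.

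The tissue was the mouse cornea with its limbal rim, the border zone that holds the stem cells of the corneal epithelium. A Beclin1 +/- library (1 heterozygous female) was set against a WT library (1 wild-type female littermate), both from mice of 28 days on a C57BL/6 background and both prepared with the 10x Genomics protocol. Which part of the Beclin1 gene is disrupted is not given in the labels. Lens, retina, iris and trabecular meshwork had been removed, and most but not all of the conjunctiva. The Beclin1 +/- library held 5155 barcodes and 74363359 UMIs (unique molecular identifiers, the counted RNA molecules), and the WT library held 2513 barcodes and 54913980 UMIs. With 1 animal and 1 library per genotype, genotype, animal and library preparation cannot be told apart, no test between the genotypes exists, and every interval below covers counting error only.

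Cells were placed in 5 classes by levels of class genes in CPM, the UMIs of the gene scaled to a fixed total of UMIs per cell. Limbal cells had at least 500 CPM of Gpha2 and 2000 CPM of Krt14. Basal cells had at least 2000 CPM of Krt14 and 8000 CPM of Krt12, the keratin of corneal epithelium. Wing cells had at least 20000 CPM of Krt12 with Krt14 under 2000 CPM, surface cells had at least 1000 CPM of Lce3a, and stromal cells had at least 5000 CPM of Dcn, which encodes the matrix proteoglycan decorin. After doublet removal the Beclin1 +/- library held 366 limbal, 1551 basal, 978 wing, 117 surface and 1333 stromal cells, and the WT library held 232, 857, 521, 53 and 557. A cell could meet more than 1 rule, as 124 Beclin1 +/- and 62 WT cells did, and 721 and 304 cells met none. The wing limit ran through a dense range of cells: 389 Beclin1 +/- and 216 WT cells lay up to 1.2 times over 20000 CPM of Krt12, and 442 and 252 lay down to 0.8 times under it. The libraries shared 15 cell barcodes. None of the 10 genes was used to form a class.

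The class labels were checked against other markers. Lum, a keratocyte proteoglycan not used in the rule, stood at 4976 CPM in Beclin1 +/- and 4914 CPM in WT stromal cells, and at most 38.6 CPM in any epithelial class. Upk1b, a gene of superficial cells, was highest in surface cells, at 3403 CPM in Beclin1 +/- and 4534 CPM in WT cells. The limbal label had weaker support. Krt15, a limbal marker, was higher in limbal than in basal cells (4022 against 943 CPM in Beclin1 +/-, 5097 against 843 CPM in WT), but it was higher still in the cells that met no class rule (8152 CPM in Beclin1 +/- and 6313 CPM in WT). Moreover, 102 of the Beclin1 +/- and 45 of the WT limbal cells also met the basal rule. Becn1 itself was detected at similar levels in both libraries, for example at 39.6 CPM (95% Poisson interval 37.1 to 42.3) in Beclin1 +/- and 39.7 CPM (36.8 to 42.8) in WT basal cells, and in stromal cells at 33.8 CPM in Beclin1 +/- and 30.3 CPM in WT. As the reads come from the 3′ end of the transcript and the disrupted part is not stated, these values do not check the genotype. Median UMIs per cell were lower in every Beclin1 +/- class, for example 8165 against 11693 in stromal and 12063 against 17719 in basal cells.

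Promoter sequences are shown for 4 of the genes because these follow different patterns over the classes described below: Ctsd and Psap had the most alike levels, Ctsk was highest in stromal cells and Lgmn in surface cells. RefSeq promoter entries (GRCm38.p6, 250 bases before to 50 bases after the transcript start) matched 7 of the 10 genes, with 9 entries in all. Capitals mark CACGTG, the core of the element through which TFEB is known to bind lysosomal genes, and TGANTCA, the AP-1 site. Both motifs read the same on either strand, they do not overlap here, and they were chosen after some of the sequences had been seen. Ctsd lies on chr7:142387778-142388077 (minus strand), Psap on chr10:60277378-60277677 (plus strand), Ctsk on chr3:95498960-95499259 (plus strand) and the Lgmn entry shown on chr12:102439043-102439342 (minus strand).
Ctsd: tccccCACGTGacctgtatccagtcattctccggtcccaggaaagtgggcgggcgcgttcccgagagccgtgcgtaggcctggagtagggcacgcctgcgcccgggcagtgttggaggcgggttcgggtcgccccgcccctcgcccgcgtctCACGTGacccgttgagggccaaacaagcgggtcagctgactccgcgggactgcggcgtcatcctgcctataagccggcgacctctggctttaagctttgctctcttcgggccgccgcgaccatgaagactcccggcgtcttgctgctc
Psap: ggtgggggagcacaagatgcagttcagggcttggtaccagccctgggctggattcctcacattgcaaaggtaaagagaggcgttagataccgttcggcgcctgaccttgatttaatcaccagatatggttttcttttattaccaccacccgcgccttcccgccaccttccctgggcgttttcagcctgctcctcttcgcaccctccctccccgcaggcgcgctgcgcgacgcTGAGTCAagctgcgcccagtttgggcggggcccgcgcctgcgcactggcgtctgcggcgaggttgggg
Ctsk: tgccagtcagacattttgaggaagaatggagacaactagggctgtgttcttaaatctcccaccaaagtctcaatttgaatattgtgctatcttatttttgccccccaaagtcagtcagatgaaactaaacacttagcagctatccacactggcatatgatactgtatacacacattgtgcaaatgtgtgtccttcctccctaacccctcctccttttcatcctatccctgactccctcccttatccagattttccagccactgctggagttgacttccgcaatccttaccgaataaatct
Lgmn: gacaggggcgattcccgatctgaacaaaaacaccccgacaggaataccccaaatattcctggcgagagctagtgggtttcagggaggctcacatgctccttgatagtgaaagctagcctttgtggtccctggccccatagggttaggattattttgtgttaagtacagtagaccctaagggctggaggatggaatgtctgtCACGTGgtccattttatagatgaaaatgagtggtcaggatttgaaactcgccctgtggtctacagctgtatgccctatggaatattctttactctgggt
CACGTG occurred in 3 of the 9 entries, those of Ctsd (2 copies), Ctsl and the Lgmn start shown, and in 7.15% of all 32851 promoter entries. Of these 3 windows, only that of Ctsd covers the annotated 5′ end of its gene. The Ctsl window, on chr13:64370471-64370770 (minus strand), lies inside the annotated gene. TGANTCA occurred in 1 of the 9, that of Psap, and in 7.81% of all entries. The Ctsk window held neither motif. Lgmn and Psap have a second entry each, on chr12:102439679-102439978 and chr10:60284211-60284510, and neither of these holds either motif; the second Lgmn entry is the one that covers the annotated 5′ end of the gene. A match is a description of these letters and not evidence of binding. In the GENCODE annotation of GRCm38, Ctsd spans 142375911 to 142388038 on chromosome 7, Psap 60277627 to 60302597 on chromosome 10, Ctsk 95499256 to 95509362 on chromosome 3 and Lgmn 102394084 to 102439813 on chromosome 12, and each is a protein-coding gene. The protein-coding genes Ctsb (63122462 to 63145923 on chromosome 14), Ctsl (64359337 to 64370890 on chromosome 13), Ctsz (174427493 to 174439039 on chromosome 2), Ctsh (90054152 to 90076089 on chromosome 9), Cst3 (148871722 to 148875692 on chromosome 2) and Cstb (78425669 to 78427622 on chromosome 10) complete the set.

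**Figure D1:**
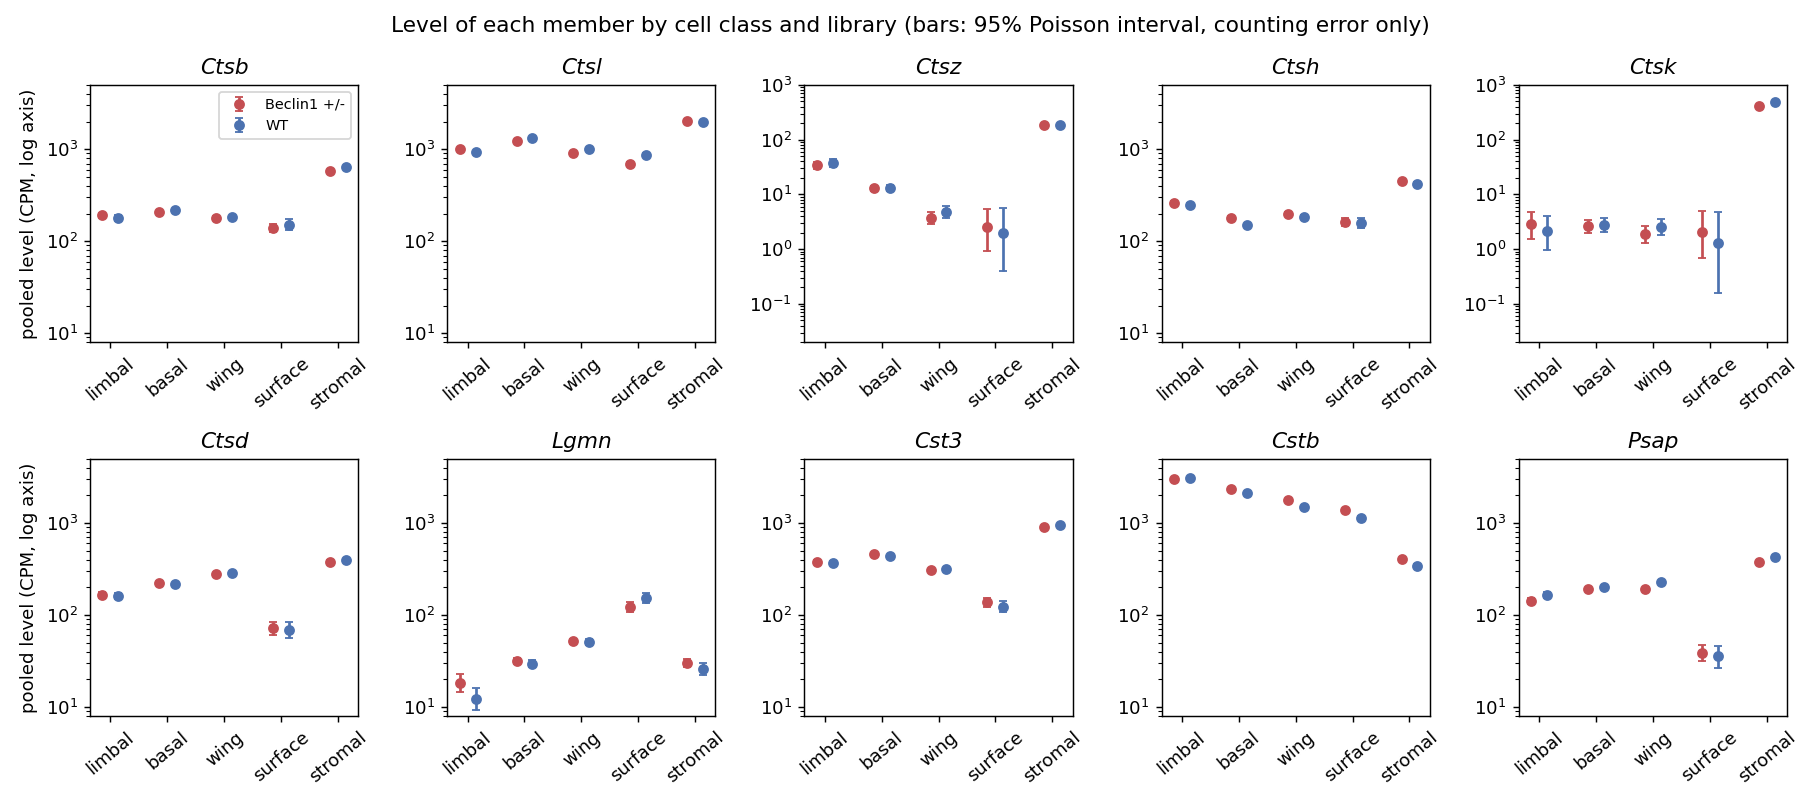
Pooled level of each gene (CPM, log axis) in 5 cell classes of the Beclin1 +/- library (red) and the WT library (blue); bars are 95% Poisson intervals for counting error, and the Ctsz and Ctsk panels have an axis of their own. On this CPM scale 8 of the 10 genes were highest in stromal cells in both libraries, Lgmn in surface cells and Cstb in limbal cells. With TMM scaling Ctsl, Ctsh and Cstb are highest in surface cells.

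Levels are pooled CPM, the UMIs of the gene over all UMIs of the class, given in the order limbal, basal, wing, surface and stromal. Orders are on this scale, and those that involve surface cells depend on it, as described with the ratios to basal cells. In both libraries, 8 of the 10 genes were highest in stromal cells on the CPM scale. With TMM scaling, explained further on, Ctsl and Ctsh stood further above basal cells in surface than in stromal cells. Ctsk, a collagen-degrading cathepsin best known from osteoclasts, showed the widest range. It stood at 2.84, 2.62, 1.87, 2.096 and 419 CPM in Beclin1 +/- cells, and at 2.13, 2.81, 2.58, 1.31 and 488 CPM in WT cells. Its highest class was 224 times its lowest in the Beclin1 +/- library and 372 times in the WT library, and in neither library did the intervals of neighbouring epithelial classes separate. With every cell thinned to 5000 UMIs, which left out no cell, Ctsk was seen in 81.8% of Beclin1 +/- stromal cells (exact binomial interval 79.7 to 83.9) and 84.9% of WT stromal cells (81.7 to 87.8), against 1.42% and 1.40% of basal cells. Unthinned, the shares were 92.0% and 98.4% of stromal cells against 2.19% and 3.38% of basal cells.

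The small epithelial Ctsk signal was set beside that of stromal markers. In the Beclin1 +/- library the epithelial classes had 0.446% to 0.679% of the stromal Ctsk level, against 0.388% to 0.774% for Dcn and 0.413% to 0.747% for Lum. In the WT library the range was 0.269% to 0.575% for Ctsk, against 0.209% to 0.820% for Dcn and 0.254% to 0.786% for Lum. Epithelial Ctsk lay within the range of Dcn in each library, and the part that stromal RNA has in it was not tested.

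**Figure D2:**
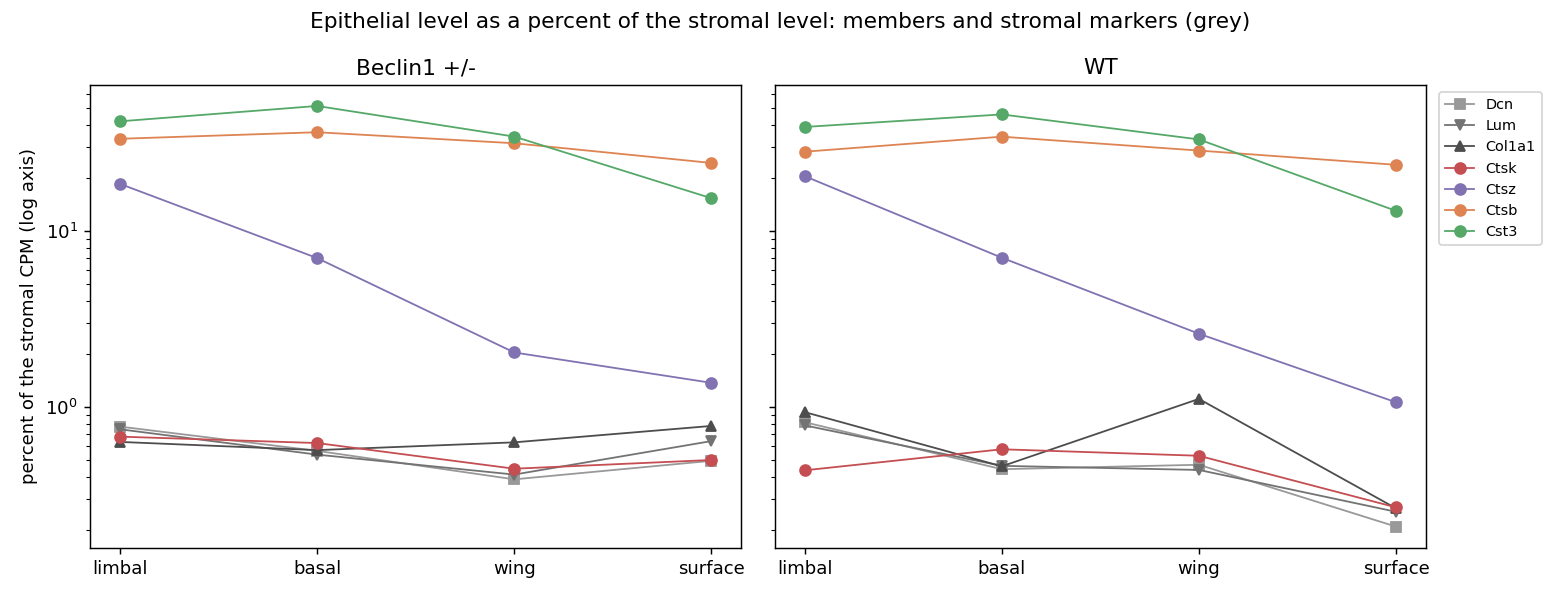
Epithelial level of 4 of the genes and of the stromal markers Dcn, Lum and Col1a1 (grey) as a percent of their stromal CPM (log axis), in the Beclin1 +/- library (left) and the WT library (right). Ctsk ran with the stromal markers near 0.5%, whereas Ctsz stood at 18.5% in Beclin1 +/- and 20.5% in WT limbal cells and went down over the basal, wing and surface classes.

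Ctsz, which encodes the carboxypeptidase cathepsin Z, was stromal too but graded over the epithelium. Its levels were 33.9, 12.9, 3.74, 2.51 and 183 CPM in Beclin1 +/- cells and 37.9, 13.1, 4.83, 1.97 and 185 CPM in WT cells. Both libraries gave the order stromal, limbal, basal, wing, surface, and only the wing and surface intervals overlapped. The limbal level over the basal level gave a log2 ratio of 1.55 (1.24 to 1.84) in Beclin1 +/- and 1.64 (1.33 to 1.95) in WT, with counting intervals in brackets. Limbal Ctsz was 18.5% and 20.5% of the stromal level, against 0.774% and 0.820% for Dcn. The part that stromal RNA has in limbal Ctsz was not tested. Within the limbal class, Ctsz was lower in cells that also had at least 8000 CPM of Krt12. They held 21.1 CPM in Beclin1 +/- and 24.0 CPM in WT, against 40.5 and 40.9 CPM in the remaining limbal cells. This split was chosen after the values were seen. Cathepsin Z is abundant in macrophages, and the 11 genes of the macrophage and dendritic list summed to 11.4 CPM in Beclin1 +/- and 5.22 CPM in WT limbal cells, with 3 and 4 of the 11 at 0. In stromal cells they summed to 44.3 CPM in Beclin1 +/- and 121 CPM in WT, with Ptprc at 0 UMIs in both. The part of macrophages in limbal or stromal Ctsz was not tested.

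By CPM, Ctsb, a cathepsin with endopeptidase and dipeptidase activity, and Ctsh, an aminopeptidase, varied less over the epithelium and were higher in the stroma. Ctsb stood at 191, 209, 181, 139.6 and 574 CPM in Beclin1 +/- cells and 180.2, 219, 183, 152 and 639 CPM in WT cells. Ctsh stood at 261, 180.3, 200.2, 161 and 449 CPM in Beclin1 +/- cells and 248, 149, 184, 157 and 420 CPM in WT cells. Stromal Ctsb against basal cells had a log2 ratio of 1.47 (1.41 to 1.52) in Beclin1 +/- and 1.55 (1.49 to 1.61) in WT, and stromal Ctsh against basal cells had a log2 ratio of 1.35 (1.29 to 1.41) in Beclin1 +/- and 1.52 (1.44 to 1.60) in WT. Ctsh was also the only one of the genes besides Ctsz and Cstb to be higher in limbal than basal cells in both libraries at a level of at least 20 CPM, with log2 ratios of 0.57 (0.47 to 0.66) in Beclin1 +/- and 0.76 (0.65 to 0.86) in WT. The value in Beclin1 +/- lies just under the 1.5-fold limit.

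Ctsl encodes cathepsin L, an endopeptidase with a known role in epidermal turnover and hair follicle cycling in mice. It was detected in nearly every cell: after thinning it was seen in 88.7% or more of the cells of every class and library. Levels were 1002, 1228, 913, 685 and 2021 CPM in Beclin1 +/- cells and 929, 1327, 997, 864 and 1971 CPM in WT cells. Basal cells had the highest epithelial level in both libraries on the CPM scale. Stromal Ctsl against basal cells had a log2 ratio of 0.71 (0.69 to 0.74) in Beclin1 +/- and 0.58 (0.55 to 0.61) in WT. It was the smallest stromal excess of the 8 genes that peaked there on the CPM scale.

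Ctsd had a second high class within the epithelium, the wing cells, and Psap did so in WT cells to a smaller degree. Ctsd stood at 164, 223, 281, 71.7 and 380.2 CPM in Beclin1 +/- cells and 162, 217, 284, 69.0 and 392 CPM in WT cells, with no neighbouring intervals that overlapped in either library. Psap stood at 143, 189.9, 190.4, 39.0 and 373 CPM in Beclin1 +/- cells and 165, 202, 226, 35.5 and 424 CPM in WT cells. Wing and basal intervals of Psap overlapped in Beclin1 +/- cells alone. Against basal cells that met no other class rule, wing Psap had a log2 ratio of −0.005 (−0.07 to 0.06) in Beclin1 +/-. In WT it was 0.17 (0.10 to 0.24). With all basal cells, both genes took the order stromal, wing, basal, limbal, surface in both libraries. Over the 10 sums of class and library their levels had a Pearson r of 0.98 on the log2(CPM + 10) scale, the highest of all 45 pairs. The sums are not independent, since 5 of them come from each library, and no p is given.

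Lgmn went up from limbal to basal, wing and surface cells. Legumain cleaves proteins after asparagine and activates other lysosomal proteases. Its levels were 18.4, 31.9, 52.0, 122 and 30.0 CPM in Beclin1 +/- cells and 12.3, 29.4, 51.4, 154 and 25.9 CPM in WT cells. The order was surface, wing, basal, stromal, limbal in both libraries, and only basal and stromal intervals overlapped. Surface Lgmn against basal cells had a log2 ratio of 1.93 (1.72 to 2.13) in Beclin1 +/- and 2.36 (2.12 to 2.58) in WT. Wing Lgmn against basal cells had a log2 ratio of 0.69 (0.55 to 0.84) in Beclin1 +/- and 0.77 (0.61 to 0.94) in WT, and limbal Lgmn against basal cells had a log2 ratio of −0.80 (−1.16 to −0.48) in Beclin1 +/- and −1.27 (−1.73 to −0.87) in WT. Seen per cell after thinning, it was found in 46.2% of Beclin1 +/- and 49.1% of WT surface cells, against 13.5% and 15.3% of basal cells; unthinned, in 82.1% and 90.6% against 32.6% and 39.3%.

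The inhibitors differed from each other. Cst3 followed the cathepsins, with 376, 459, 308, 137 and 896 CPM in Beclin1 +/- cells and 370.0, 436, 315, 124 and 950.4 CPM in WT cells, and the order stromal, basal, limbal, wing, surface in both libraries. Cstb was lowest in stromal cells, with 2983, 2322, 1776, 1383 and 409.6 CPM in Beclin1 +/- cells and 3048, 2144, 1509.6, 1124 and 342 CPM in WT cells. On the CPM scale it went down from limbal to basal, wing, surface and stromal cells in both libraries, with no overlap of neighbouring intervals. By CPM its highest class was 7.28 times the lowest in Beclin1 +/- and 8.90 times in WT. With TMM scaling, explained further on, surface cells were above basal cells and also above limbal cells, in WT by little. Stromal Cstb against basal cells had a log2 ratio of −2.49 (−2.53 to −2.44) in Beclin1 +/- and −2.63 (−2.69 to −2.57) in WT. Stromal Cstb was 17.6% of the basal level in Beclin1 +/- and 15.97% in WT. The keratins were lower, at 6.21% and 4.56% for Krt12, 6.01% and 4.66% for Krt5, and 4.19% and 3.13% for Krt14. Aldh3a1 was higher, at 23.4% and 17.7%. The part that epithelial RNA has in stromal Cstb or in stromal Aldh3a1 was not tested.

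Ratios of a class to basal cells use basal cells that met no other class rule, and a gene is counted as different at 1.5-fold or more. In stromal cells 9 of the 10 genes passed this limit in Beclin1 +/- cells and 8 in WT cells. The background is the share of all genes that did so, taken over those averaging 20 CPM or more: 58.7% passed it in Beclin1 +/- and 60.3% in WT. By direction, 8 and 7 of the genes were higher, against 32.4% and 33.1% of all genes, 1 (Cstb) was lower in each library, against 26.3% and 27.2%, and the median log2 ratio of the 10 was 0.96 and 1.10, against 0.06 and 0.05 for all genes. Cathepsin L was the gene that passed in Beclin1 +/- cells alone. The limbal contrast gave 3 of 10 in each library, or, among the 9 averaging 20 CPM or more, 2 in Beclin1 +/- and 3 in WT, against 16.5% of all genes in Beclin1 +/- and 19.2% in WT. In wing cells the count was likewise 3 of 10 in each library, or 2 in Beclin1 +/- and 1 in WT among the 8 averaging 20 CPM or more, against 32.5% in Beclin1 +/- and 31.1% in WT. Ctsz (higher) and Lgmn (lower) passed in limbal cells of both libraries, joined by Ctsk in Beclin1 +/- and Ctsh in WT. Ctsz (lower) and Lgmn (higher) passed in wing cells of both libraries, joined by Cst3 in Beclin1 +/- (lower) and Ctsk in WT (higher). Epithelial Ctsk rests on few UMIs, 13 in Beclin1 +/- and 9 in WT limbal cells, and its limbal log2 ratio was 0.85 (−0.23 to 1.78) in Beclin1 +/- and 0.58 (−0.76 to 1.68) in WT.

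**Figure D3:**
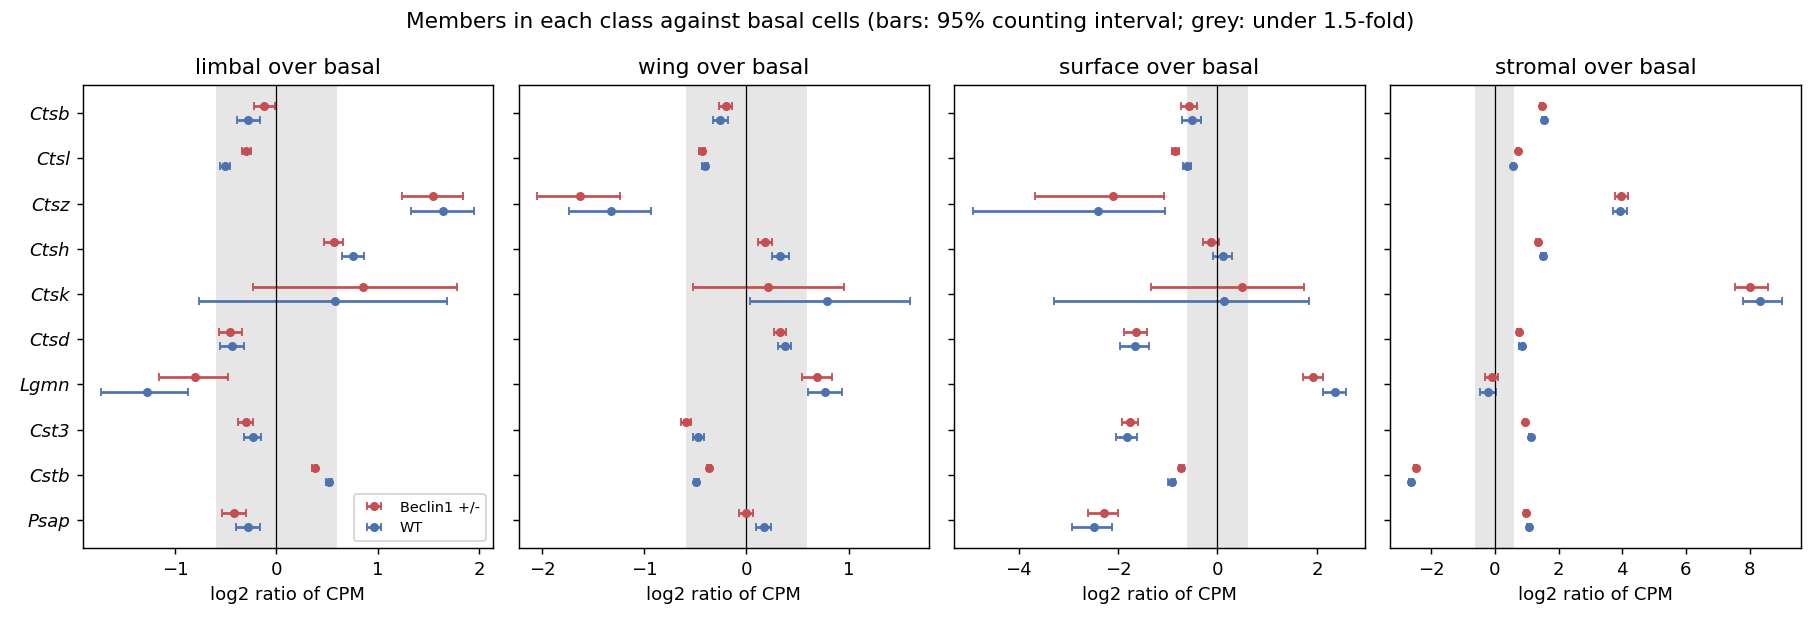
Log2 ratio of CPM of limbal, wing, surface and stromal over basal cells for each gene, in the Beclin1 +/- library (red, upper point) and the WT library (blue, lower point), with 95% counting intervals; the grey band marks ratios under 1.5-fold, and each panel has its own axis range. Ctsk and Ctsz stand apart in the stromal panel, Lgmn is the gene to the right in the surface panel, and Cstb is the gene to the left in the stromal panel.

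Surface cells need a caution of scale. There 7 of 10 genes passed 1.5-fold in each library, 1 higher and 6 lower (1 and 5 of the 8 averaging 20 CPM or more), but 84.6% of all genes did so in Beclin1 +/- and 85.3% in WT, with 64.3% and 63.3% lower and 20.2% and 21.9% higher, and the median log2 ratio of all genes was −1.35 in both. Relative to that shift the picture changes. TMM scaling, which sets the bulk of genes at no change, moved every surface ratio up by 1.42 in Beclin1 +/- and 1.36 in WT on the log2 scale. With it 7 genes again passed in each library, but 5 were higher and 2 lower. Under it Ctsl was at 0.57 in Beclin1 +/- and 0.75 in WT, and Cstb at 0.69 and 0.44, both with the opposite sign from CPM scaling. Ctsb, which was under 1.5-fold by CPM, was at 0.84 in each library. Ctsh, at −0.13 in Beclin1 +/- and 0.10 in WT by CPM, was at 1.29 and 1.46 with TMM. Psap (−2.29 (−2.61 to −2.00) in Beclin1 +/- and −2.49 (−2.92 to −2.12) in WT), Ctsd (−1.64 (−1.88 to −1.43) in Beclin1 +/- and −1.66 (−1.96 to −1.39) in WT) and Cst3 (−1.75 (−1.91 to −1.59) in Beclin1 +/- and −1.81 (−2.03 to −1.61) in WT) were lower by CPM. With TMM scaling Psap was at −0.87 in Beclin1 +/- and −1.13 in WT and still passed, whereas Ctsd at −0.23 and −0.30 and Cst3 at −0.33 and −0.45 were negative but under 1.5-fold. Lgmn was higher under both scalings, at 3.34 and 3.72 with TMM. The shift was −0.24 in Beclin1 +/- and −0.27 in WT for stromal cells, where 7 of 10 genes then passed in each library (6 higher and 1 lower), and −0.10 in each library for limbal cells.

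Stromal cells were not uniform. A split of the class by Kera, which encodes the keratocyte proteoglycan keratocan, at 1000 CPM was chosen after the values were seen and gave 961 and 409 cells at or over the limit and 372 and 148 cells under it in Beclin1 +/- and WT. Cst3 stood at 1547 CPM in Beclin1 +/- and 2049 CPM in WT cells with low Kera, against 679 and 641 CPM in cells with high Kera. Basal cells that met no other class rule held 463 and 435 CPM of Cst3. Cst3 thus passed 1.5-fold in the stromal class as a whole, but not in its high-Kera cells, in both libraries. Ctsk stood at 530 and 798 CPM in low-Kera cells, against 382 and 401 CPM in high-Kera cells. Ctsh went the other way, at 407 and 371 CPM against 463 and 434 CPM. Ctsb hardly differed, at 581 and 634 CPM against 571 and 641 CPM. Krt12 and Col8a1 were also higher in the low-Kera cells. Krt12 was 1595 CPM in Beclin1 +/- and 1618 CPM in WT, against 1130 and 772 CPM. Col8a1, used here as 1 marker of corneal endothelium, was 279 and 370 CPM against 14.9 and 14.1 CPM. Whether the low-Kera cells make Col8a1 themselves was not tested. Ptprc, the defining leukocyte gene, had no UMI in either set in either library (a limit of 3 UMIs is 1.04 CPM in Beclin1 +/- and 2.00 CPM in WT low-Kera cells), although Cd74 was at 229 CPM in the WT low-Kera cells. The part of epithelial, endothelial or leukocyte RNA in these levels was not tested.

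Between the genotypes, none of the 10 genes differed by 1.5-fold in any of the 5 classes. Of all genes, 2.29% did so in limbal, 1.5% in basal, 1.64% in wing, 12.8% in surface and 1.92% in stromal cells, so a count of 0 is near this background. Ratios that follow are log2 of Beclin1 +/- over WT with 95% counting intervals. Cstb was above WT in 4 of 5 classes, by 0.12 (0.10 to 0.13) in basal, 0.23 (0.21 to 0.26) in wing, 0.30 (0.21 to 0.38) in surface and 0.26 (0.19 to 0.33) in stromal cells, and was at −0.03 (−0.07 to 0.00) in limbal cells. Its stromal value stands beside stromal Krt12 of 1246 CPM in Beclin1 +/- and 958 CPM in WT. Psap was below WT in 4 of 5 classes, at −0.21 (−0.37 to −0.06) in limbal, −0.09 (−0.15 to −0.02) in basal, −0.25 (−0.32 to −0.18) in wing and −0.18 (−0.25 to −0.12) in stromal cells, with 0.13 (−0.36 to 0.65) in surface cells. Cstb and Psap kept these directions in those 4 classes under every alternative run, TMM included, which moved the wing ratios by 0.13. The alternatives reuse the same libraries, so this is not a check between animals. All of these Cstb and Psap ratios lay between the 5th and 95th percentiles of all genes in their class. In wing cells these percentiles were −0.40 and 0.27, and in stromal cells −0.35 and 0.28.

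Single larger values were found in single classes. Ctsh in basal cells was at 180 CPM in Beclin1 +/- and 149 CPM in WT, a log2 ratio of 0.27 (0.20 to 0.34), just above the 95th percentile of all genes there (0.26). Surface Ctsl was at 685 CPM in Beclin1 +/- and 864 CPM in WT (−0.34 (−0.44 to −0.23)), and surface Lgmn at 122 and 154 CPM (−0.33 (−0.58 to −0.08)). Both lie inside the central 90% of genes in that class, which ran from −0.65 to 0.62. Stromal Ctsk was at 419 CPM in Beclin1 +/- and 488 CPM in WT (−0.22 (−0.28 to −0.16)). In the split by Kera, this gap was wide in low-Kera cells and small in high-Kera cells. The part that the make-up of the stromal class has in it was not tested. Limbal Lgmn gave 0.57 (0.06 to 1.10) from 84 and 52 UMIs, at a mean under 20 CPM. With 1 animal per genotype, none of these differences can be set against a spread between animals.

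**Figure D4:**
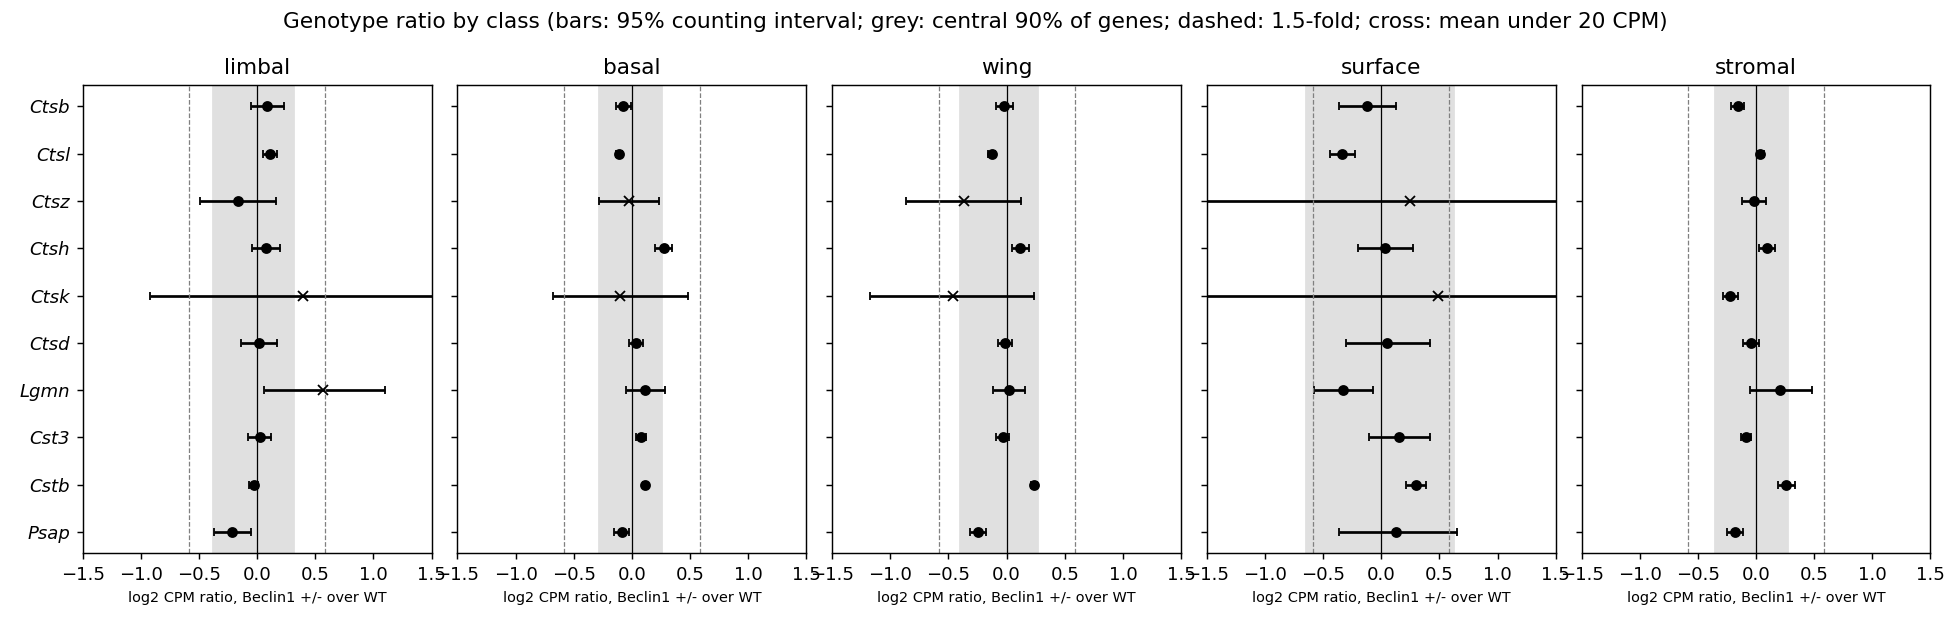
Log2 ratio of CPM, Beclin1 +/- over WT, for each gene in each class, with 95% counting intervals; the grey band holds the central 90% of all genes of at least 20 CPM, dashed lines mark 1.5-fold, crosses are genes under 20 CPM, and the intervals of Ctsz and Ctsk in surface cells and of Ctsk in limbal cells run past the axis. All 50 points lie within the dashed lines, and Ctsh in basal cells sits at the right edge of the band.

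The wider pathway was described from lists of related genes, counted at 1.5-fold over basal cells among list members averaging 20 CPM or more. Among all genes of that level, 32.4% were higher and 26.3% lower in Beclin1 +/- stromal cells, and 33.1% and 27.2% in WT. Lysosomal hydrolases and lipid activators were higher in stromal cells: 16 of 16 measured in Beclin1 +/- and 18 of 18 in WT, with median log2 ratios of 2.25 and 2.34. As a gene can reach 20 CPM through the stroma alone, the count over all 30 of the list, each of which had a UMI, is also given: 27 were higher in each library, and 2 in Beclin1 +/- and 1 in WT were lower. Among all genes with a UMI, 72.5% in Beclin1 +/- and 69.3% in WT stromal cells passed 1.5-fold in either direction. Hexa, a subunit of β-hexosaminidase, was at 183 CPM in Beclin1 +/- and 217 CPM in WT stromal cells, against 19.7 and 20.0 CPM in basal cells. Gm2a, the activator protein of that enzyme, was at 85.3 and 83.6 CPM against 9.67 and 8.26 CPM, and Naglu, which degrades heparan sulfate, at 39.997 and 44.1 CPM against 4.05 and 4.07 CPM. Other cathepsins and lysosomal peptidases were higher for 4 of 7 measured in Beclin1 +/- and 5 of 8 in WT, led by Scpep1, Cpq and Ctsf, with Ctsf at 180 and 175 CPM in stromal against 8.84 and 9.98 CPM in basal cells. Lysosomal membrane genes were higher for 3 of 8 and 4 of 8, and Cd63, a tetraspanin, was at 3789 and 3796 CPM against 68.4 and 62.2 CPM. Vacuolar ATPase subunits, which acidify the lysosome, split with 2 of 14 higher and 2 of 14 lower in each library. Sorting and regulation genes had 1 of 4 higher and 2 of 4 lower in each, with M6pr, a mannose 6-phosphate receptor, at 17.0 and 16.8 CPM against 43.1 and 45.5 CPM. Over all genes with a UMI, other cathepsins had 6 of 11 higher and 3 lower in Beclin1 +/- and 8 of 12 higher and 2 lower in WT, membrane genes 5 and 8 of 14 higher with 1 lower in each, vacuolar ATPase subunits 5 of 18 higher and 3 lower in each, and sorting genes 6 of 13 higher and 3 lower in each.

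Some of the other cysteine protease inhibitors were high in surface cells, where Cstb was lowest among the epithelial classes on the CPM scale. In surface cells 4 of 5 measured were higher than in basal cells and none lower, in each library, but a gene can pass the 20 CPM filter through surface cells alone, and of all 10 inhibitors with a UMI 5 were higher and 4 lower in Beclin1 +/- and 4 higher and 4 lower in WT. Among all genes averaging 20 CPM or more, 20.2% were higher in Beclin1 +/- and 21.9% in WT surface cells, with 64.3% and 63.3% lower. Csta1, a stefin A gene, stood at 70.0, 148, 365 and 2474 CPM in Beclin1 +/- limbal, basal, wing and surface cells, and at 61.4, 116, 353 and 2833 CPM in the same WT classes. BC100530, another stefin A gene, stood at 6656 CPM in Beclin1 +/- and 8748 CPM in WT surface cells, against 1349 and 910 CPM in basal cells. Cst6, which encodes cystatin E/M, an inhibitor of legumain and cathepsin L in human skin, was at 225 and 219 CPM in wing cells, against 43.4 and 38.7 CPM in basal cells and 11.2 and 16.1 CPM in limbal cells. In stromal cells the inhibitors averaging 20 CPM or more were lower, 3 of 3 in Beclin1 +/- and 4 of 4 in WT, and of the 10 with a UMI 2 were higher and 7 lower in each library. Among all genes averaging 20 CPM or more, 26.3% were lower in Beclin1 +/- and 27.2% in WT stromal cells. The stefin A genes of the mouse are a family of close copies, so reads may be split among them and each single value is uncertain.

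**Figure D5:**
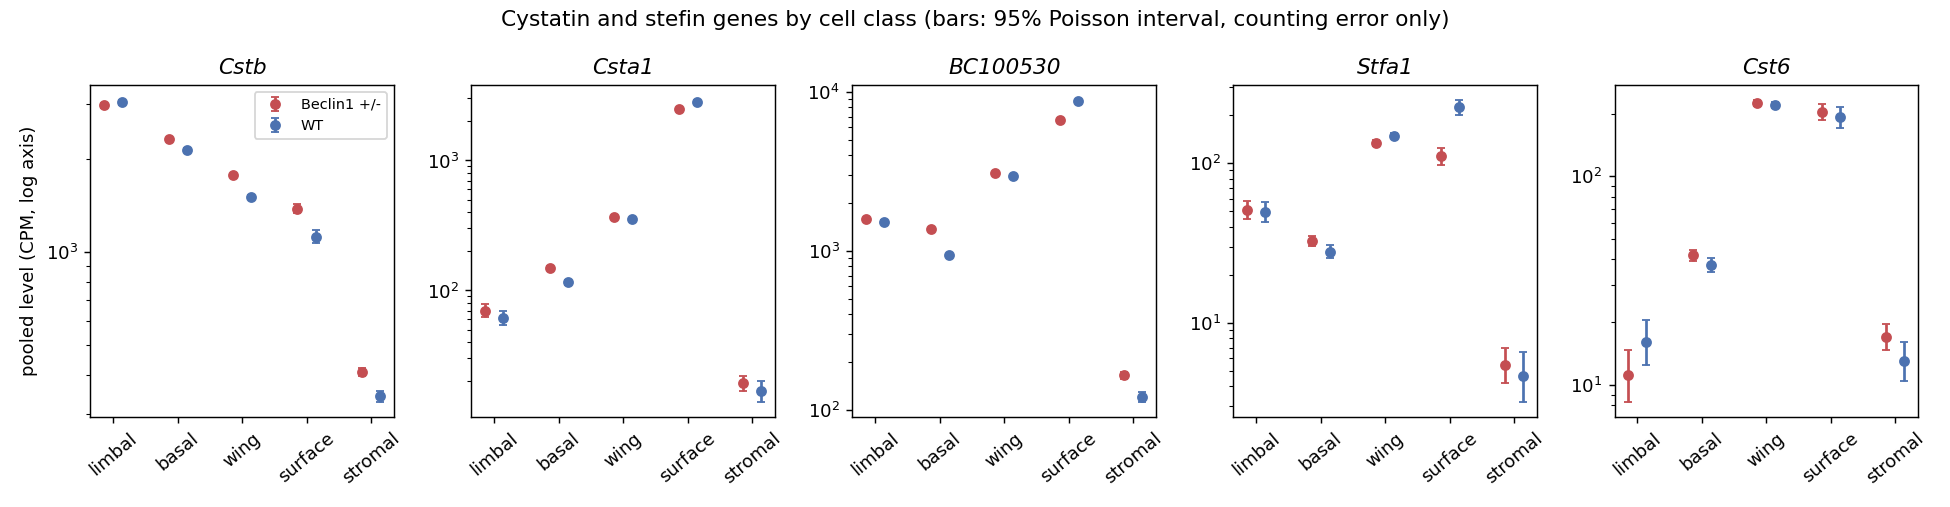
Pooled level (CPM, log axis, each panel with its own range) of Cstb and of 4 other cystatin and stefin genes in 5 classes of the Beclin1 +/- library (red) and the WT library (blue), with 95% Poisson intervals. On this CPM scale Cstb goes down from limbal to surface cells (with TMM scaling surface cells are above basal cells) while Csta1 goes up, from 70.0 to 2474 CPM in Beclin1 +/- cells.

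Further list genes differed between the epithelial classes. Ctsc, which activates serine proteases of granules, was at 113 and 124 CPM in limbal cells of Beclin1 +/- and WT and at 120.4 and 87.8 CPM in wing cells, against 58.6 and 39.3 CPM in basal cells. The other cathepsins had 1 of 4 higher and 1 of 4 lower in limbal cells of each library. Limbal Cd63 was at 346 and 331 CPM against 68.4 and 62.2 CPM, the only lysosomal membrane gene of 8 to pass there in either library. Cd63 also stands in the limbal marker list. Of all genes averaging 20 CPM or more, 8.97% were higher and 7.49% lower in Beclin1 +/- limbal cells, and 10.3% and 8.9% in WT. Hydrolases in limbal cells were lower for 1 of 9 in Beclin1 +/- and 4 of 9 in WT, with none higher. Vacuolar ATPase subunits were lower for 1 of 12 and 1 of 11, and none of 3 sorting genes passed. Inhibitors had 1 of 5 higher and 3 lower in Beclin1 +/- and 3 of 6 higher and 2 lower in WT. Over all list genes with a UMI, whatever their level, limbal hydrolases had 5 of 30 higher and 3 lower in Beclin1 +/- and 2 higher and 6 lower in WT, and vacuolar ATPase subunits 4 of 18 higher and 3 lower and 2 higher and 4 lower. Among all genes with a UMI, 38.4% in Beclin1 +/- and 40% in WT limbal cells passed in either direction. In wing cells 4 and 6 of 14 vacuolar ATPase subunits were higher and none lower, for example Atp6ap2 at 248 and 227 CPM against 103 and 94.96 CPM. Hydrolases there were higher for 4 of 9 in each library, other cathepsins for 1 of 4, inhibitors for 4 of 5, sorting genes for 1 of 4 and 2 of 4, and membrane genes for 1 of 8 with 1 lower. Of all genes averaging 20 CPM or more, 16.5% were higher and 15.9% lower in Beclin1 +/- wing cells, and 17.3% and 13.8% in WT. Over all list genes with a UMI, wing vacuolar ATPase subunits had 7 of 18 higher in Beclin1 +/- and 6 in WT with none lower, hydrolases 9 and 10 of 30 higher with 2 and 3 lower, and inhibitors 4 of 10 higher and 4 lower in each library. Among all genes with a UMI, 49.9% in Beclin1 +/- and 50.8% in WT wing cells passed in either direction.

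In surface cells Ctss, a cathepsin best known from antigen-presenting cells, had 116 UMIs (48.6 CPM) in Beclin1 +/- and 79 UMIs (51.9 CPM) in WT, against 28 and 2 UMIs in all basal cells (1.26 and 0.117 CPM). Macrophage and dendritic genes summed to 3.35 CPM in Beclin1 +/- and 1.31 CPM in WT surface cells, with 5 and 10 of 11 at 0, among them Ptprc, Csf1r, Adgre1, Mrc1 and Tyrobp in both libraries. Cd68, a lysosomal membrane protein abundant in macrophages, was at 118 and 144 CPM, against 10.9 and 9.74 CPM in basal cells. Over the lists, on the CPM scale, surface cells had 1 of 5 and 1 of 6 hydrolases higher with 1 and 2 lower, 2 of 4 other cathepsins higher with 1 and 2 lower, 1 and 3 of 6 membrane genes higher with 3 lower in each, 3 and 4 of 13 vacuolar ATPase subunits higher with 1 and 2 lower, and 1 of 2 sorting genes higher with none lower. Over all list genes with a UMI the surface counts were mostly lower: 4 and 3 of 30 hydrolases were higher with 23 and 24 lower, 1 and 4 of 14 membrane genes higher with 11 and 9 lower, and 1 of 13 sorting genes higher with 9 lower in each library. Other cathepsins had 4 and 5 of 11 higher with 5 and 6 lower, and vacuolar ATPase subunits 4 and 5 of 18 higher with 4 and 6 lower. Among all genes with a UMI, 85.1% in Beclin1 +/- and 85.8% in WT surface cells passed 1.5-fold in either direction. The median log2 ratio of all genes averaging 20 CPM or more was −1.35 in both. Lower counts in surface cells are therefore not particular to these lists.

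Between the genotypes only 3 genes of these lists passed 1.5-fold among those of at least 20 CPM, all lower in Beclin1 +/-. They were 1 of 6 measured inhibitors in limbal cells, and 1 of 5 inhibitors and 1 of 5 membrane genes in surface cells. Among all genes averaging 20 CPM or more, 2.29% passed in limbal and 12.8% in surface cells. A direction cannot be read from 3 genes. Serpinb3a, from a cluster of near-identical serpin copies, was at 26.9 CPM in Beclin1 +/- and 46.9 CPM in WT limbal cells. Stfa1 was at 111 and 223 CPM, and Tmem55b at 39.8 and 60.5 CPM, in surface cells. Surface cells were the smallest class, with 117 and 53 cells.

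For each gene the 3 most alike by Pearson r of log2(CPM + 10) over the 10 sums were taken from 3792 genes of at least 50 CPM in any sum, as a description. Ctsk was most like Sgce, P3h1 and Mrc2 (r = 1.00 each), of which P3h1 encodes a collagen prolyl hydroxylase and Mrc2 a collagen uptake receptor. Ctsz was most like Cd63, Smim3 and F2r (1.00 each). Cstb was most like the epithelial junction genes Lsr and Cldn1 and the transcription factor gene Klf5 (0.98 to 0.99), and Lgmn was most like Dap, Gak and Fem1c (0.97 to 0.98). Ctsb was nearest to Slc29a1, Ptgs2 and Il11ra1 (0.99 each), Ctsl to Cisd2, Adk and Ak1 (0.97 each), Ctsh to Igfbp2, Pdlim4 and Ssr4 (0.97 to 0.98) and Ctsd to Pttg1, Pja1 and Prdx2 (0.99 to 1.00). Cst3 was nearest to Sep15, Tmem41b and Ergic3 (0.99 each) and Psap to Qk, Vapb and Anxa6 (0.99 to 1.00). Each value rests on 5 classes, seen in both libraries.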

How the data were processed

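Single-cell RNA counts were measured in 1 Beclin1 +/- and 1 WT cornea and limbus library. The deposited matrices hold UMI counts per gene and barcode, made by the authors with Cell Ranger 2.1.1 on mm10, per the submitters' processing notes. Likely doublets were taken out of these counts first: each library was scored by Scrublet (scanpy 1.11.5), and the top scores, 0.8% for every 1000 barcodes, were dropped, which cost 213 Beclin1 +/- and 51 WT barcodes. Class sums were turned into CPM, with exact Poisson intervals for levels and exact conditional binomial (Clopper-Pearson) 95% intervals for ratios, using scipy 1.17.1; 0.5 was added to each count for ratios. All intervals cover counting error only. A 1.5-fold limit and a mean of at least 20 CPM define the background shares. Reads are counted at the 3′ end without division by length, so levels are compared within a gene, not between genes. The calculations were tested on simulated data.

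The 10 genes, the classes and the gene lists were chosen with earlier results of these data known. Named list genes are the 3 measured ones with the largest mean ratio over both libraries in each contrast, where at least 1.5-fold. Hexa, Atp6ap2, Ctss and the other list genes described further were taken from these. The splits by Kera, Krt12, Cd74, Col8a1, Krt4 and Psca, the promoter motifs and 1 alternative (stromal cells with Krt12 under 2000 CPM) were chosen after values were seen. With 1 library per genotype no test was possible. TMM factors came from edgeR 4.0.16. Alternatives were all barcodes, TMM scaling, means of single cells, class limits doubled and halved, cells of 1 class only, cells of at least 8100 UMIs, and totals without mitochondrial, ribosomal protein and keratin genes.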

Additional observations from a re-analysis of the deposited data

How the results depend on the processing

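No paired analysis was possible because each genotype has 1 library, and for the same reason no library could be left out. Of 130 ratios in 13 comparisons, 43 passed 1.5-fold, 29 of these under every alternative run, and 38 of the 43 kept their sign under all of them; of the 50 genotype ratios, 20 changed sign under at least 1 alternative. Of 107 counts under alternatives, 90 were within 1.5 times. The genotype count of 0 became 2 in limbal, 1 in basal, 1 in wing and 1 in surface cells with all barcodes. In limbal cells it became 1 with TMM, 1 with halved limits, 1 with cells of 1 class only and 1 with at least 8100 UMIs. In basal cells it became 1 with doubled limits and 1 with at least 8100 UMIs, and in surface cells 1 with means of single cells and 1 with halved limits. The count of 3 for wing over basal in WT became 5 with TMM and 6 with doubled limits. For limbal over basal, the 3 in Beclin1 +/- became 5 with doubled limits and 5 with cells of 1 class only, and the 3 in WT became 5 with totals without mitochondrial, ribosomal protein and keratin genes. Of the ratios that passed 1.5-fold in the values reported, those that reversed were these: surface Ctsl (0.57 in Beclin1 +/- and 0.75 in WT) and surface Cstb (0.69 and 0.44) with TMM, and limbal Ctsk in Beclin1 +/- (−0.14) with doubled limits. Surface Ctsb, under 1.5-fold by CPM (−0.57 in Beclin1 +/- and −0.52 in WT), was at 0.84 in each library with TMM. Surface Ctsh, also under 1.5-fold by CPM (−0.13 in Beclin1 +/- and 0.10 in WT), was at 1.29 and 1.46 with TMM. TMM moves all ratios of a comparison by 1 constant; for the other moves the cause was not tested. Depth limits the epithelial Ctsk values, which rest on 2 to 58 UMIs, and surface Ctsz, on 6 UMIs in Beclin1 +/- and 3 in WT. The background shares moved with the minimum level: the share of genes past 1.5-fold between the genotypes ran from 1% to 6.76% over the 5 classes with a minimum of 100 CPM, and from 26.4% to 54% with no minimum but 1 UMI.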

Other observations

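Small sets of cells outside the 5 classes held higher levels of several of the 10 genes than any class. Pooled, the cells that met no class rule were not highest for any of the 10 genes. Their Ctsz was at 33.3 CPM in Beclin1 +/- and 24.0 CPM in WT, and their Lgmn at 91.9 and 71.0 CPM. Among the cells that met no class rule, 15 Beclin1 +/- and 6 WT cells had at least 2000 CPM of Cd74. These carried other genes of the macrophage and dendritic list, such as C1qa at 2968 CPM in Beclin1 +/- and 3236 CPM in WT and Tyrobp at 2496 and 2356 CPM. Ctsz stood there at 1677 and 1301 CPM, against 183 and 185 CPM in stromal cells, and Cst3 at 5089 and 4976 CPM. Psap was at 1234 and 1671 CPM and Lgmn at 520 and 739 CPM. Ctsl was lower than in any of the 5 classes, at 173 CPM in Beclin1 +/- and 317 CPM in WT. Ctsk had 0 UMIs in these cells in both libraries, which allows up to 28.9 CPM in Beclin1 +/- and 52.8 CPM in WT by a limit of 3 UMIs. Krt12 was at 1542 and 1073 CPM, and the number of cells is small.

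A second set of 30 Beclin1 +/- and 12 WT cells had at least 500 CPM of Col8a1 and also the corneal endothelial genes Slc4a11 (2095 CPM in Beclin1 +/- and 1918 CPM in WT) and Col8a2 (2034 and 2126 CPM). Lgmn stood at 441 and 522 CPM in them, against 122 and 154 CPM in surface cells, the highest of the 5 classes. In 110 Beclin1 +/- and 58 WT cells with at least 2000 CPM of Krt4, which also had the conjunctival genes Krt13 (3918 and 3621 CPM) and Krt19 (3448 and 2988 CPM), Ctsh was at 390 and 334 CPM and Ctsl at 375 and 296 CPM. Cstb was at 2437 and 2546 CPM there. These sets were formed after values had been seen, and no test was made.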
